A study of Rattus norvegicus with 13 samples.

Results

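The genes described here build, cut and crosslink the extracellular matrix of the rat mammary gland, and they were taken from the expression table by symbol alone. They comprise the matrix metalloproteinases (Mmp genes), the tissue inhibitors of metalloproteinases (Timp genes), the Adam, Adamts and Adamts-like genes, the lysyl oxidases, the plasminogen activators *Plau* and *Plat* with the receptor *Plaur* and the inhibitor *Serpine2*, and the collagen chaperone *Serpinh1*. The rule found 65 genes among the 14790 genes of the table. All 65 had a mean of at least 1 normalized count and were tested. Their means over all rats ran from 10.6 normalized counts to 10886 (*Plau*).

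The samples are RNA-seq libraries of mammary epithelial cells from 13 female Wistar-Furth rats, an inbred strain susceptible to mammary cancer, with 1 library per rat. The 6 rats of one group were 6 weeks old, within the window of susceptibility (WOS), and the 7 rats of the other were 10 weeks old, outside WOS. No treatment or genetic change is named for either age. The cells came from the abdominal and inguinal glands by collagenase digestion and a filter that holds back ductal fragments, and according to the methods the preparation also held stromal fibroblasts and immune cells. The total of normalized counts per rat was 13261906 to 15659533 at 6 weeks and 13766735 to 15402814 at 10 weeks, and these 65 genes made up 0.672% to 0.794% of it at 6 weeks and 0.549% to 0.717% at 10 weeks. A normalized count here is the count estimated by the authors for a gene, scaled per library and rounded. Levels are compared between rats and not between genes, since no transcript lengths were at hand.

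At puberty the mammary ducts lengthen and branch into the fat pad, and the matrix around the end buds is cut and laid down again. Matrix metalloproteinases are made as inactive precursors, cut collagens and other matrix proteins once activated, and are held in check by the Timp proteins. Adam proteins release growth factors and receptors from the cell surface, Adamts proteins cut proteoglycans and trim procollagen, and the plasminogen activators turn plasminogen into the broad protease plasmin. Lysyl oxidases act in the other direction and join collagen and elastin fibres by covalent crosslinks.

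A cluster of 10 Mmp genes lies on rat chromosome 8 in RefSeq (GRCr8), in the order *Mmp13*, *Mmp12*, *Mmp1b*, *Mmp3*, *Mmp1*, *Mmp10*, *Mmp8*, *Mmp27*, *Mmp20* and *Mmp7*. Of these, 7 are in the table, all but *Mmp1b*, *Mmp1* and *Mmp8*. Their promoters are shown because most of them share a pair of motifs that few promoters hold. The sequences are from RefSeq, build GRCr8, plus strand, 5′ to 3′, and cover the 100 bases before each start site. Capitals mark the AP-1 motif TGANTCA, whose letters are the same on both strands, and the TATA box TATAAA. AP-1 is a transcription factor pair of the Fos and Jun families, known for acting on Mmp promoters.
*Mmp13*, chr8:12782729-12782828: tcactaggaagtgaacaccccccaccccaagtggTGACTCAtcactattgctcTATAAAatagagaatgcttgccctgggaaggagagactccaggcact
*Mmp12*, chr8:12866552-12866651: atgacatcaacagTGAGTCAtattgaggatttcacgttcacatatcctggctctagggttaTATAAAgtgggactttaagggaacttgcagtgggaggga
*Mmp3*, chr8:12925181-12925280: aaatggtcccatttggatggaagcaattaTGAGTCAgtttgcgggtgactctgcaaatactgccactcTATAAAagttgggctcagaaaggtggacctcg
*Mmp10*, chr8:12974607-12974706: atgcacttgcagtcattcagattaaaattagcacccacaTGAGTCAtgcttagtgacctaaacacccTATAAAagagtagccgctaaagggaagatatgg
*Mmp27*, chr8:13030652-13030751: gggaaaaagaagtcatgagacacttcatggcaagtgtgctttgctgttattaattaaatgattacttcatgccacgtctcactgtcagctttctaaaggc
*Mmp20*, chr8:13074179-13074278: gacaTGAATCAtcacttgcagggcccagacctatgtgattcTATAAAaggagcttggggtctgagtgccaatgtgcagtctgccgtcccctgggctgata
*Mmp7*, chr8:13132943-13133042: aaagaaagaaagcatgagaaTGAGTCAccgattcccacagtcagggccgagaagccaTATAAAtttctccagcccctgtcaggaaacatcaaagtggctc

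Both motifs were found in 6 of these 7 promoters, and *Mmp27* held neither in its window of 300 bases. In the 6 the AP-1 letters began 61 to 96 bases before the start, and the TATA box nearest to the start began 32 to 59 bases before it. Both strands were searched, and the 2 motifs cannot share a base. Over all 33469 RefSeq promoter windows of the same length, 7.33% held the AP-1 motif, 14.2% the TATA box and 1.36% both. Of the 65 genes, 47 had a window. Outside the cluster the AP-1 letters were found only in the windows of *Plaur* and *Adam19*. Of the genes that differed between the ages, described below, 13 of the 24 higher at 6 weeks and 4 of the 5 higher at 10 weeks had a window. None of these windows held the AP-1 letters (0 of 13 and 0 of 4). With 7.33% of all windows holding them, so few windows cannot show a lack. These matches are letters in a window and are given as a description.

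The ages were compared to ask how expression differs within and outside WOS, with limma on log2(normalized count + 1). A gene is called differentially expressed (DE) at a Benjamini-Hochberg adjusted p under 0.05 over all 14790 genes, and a log2 fold change above 0 is higher at 6 weeks. Fold changes of genes with few counts are understated on this scale. Of the 65 genes 29 were DE, where 16.1% of all genes were. Among them 24 were DE and higher at 6 weeks (36.9%, where 8.71% of all genes were), and 5 were DE and higher at 10 weeks (7.69%, where 7.39% of all genes were). The log2 fold change was above 1 in 15 of the 24 (23.1% of the 65, against 3.83% of all genes). The ages did not overlap in 11 genes (6.07% of all genes did not). In 10 of them the 6-week rats were higher (15.4% of the 65, against 3.29% of all genes), and in the other, *Adam8*, the 10-week rats were (2.78% of all genes). The median log2 fold change was 0.47 over the 65 genes and 0.028 over all genes. It was above 0 for 48 of the 65 and below 0 for 17, and of the 36 that were not DE another 9 had an unadjusted p under 0.05. The groups with most members higher at 6 weeks were the membrane-bound Mmps, the lysyl oxidases with *Serpinh1*, the Adamts proteases outside the proteoglycanases and the plasminogen system.

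**Figure D1:**
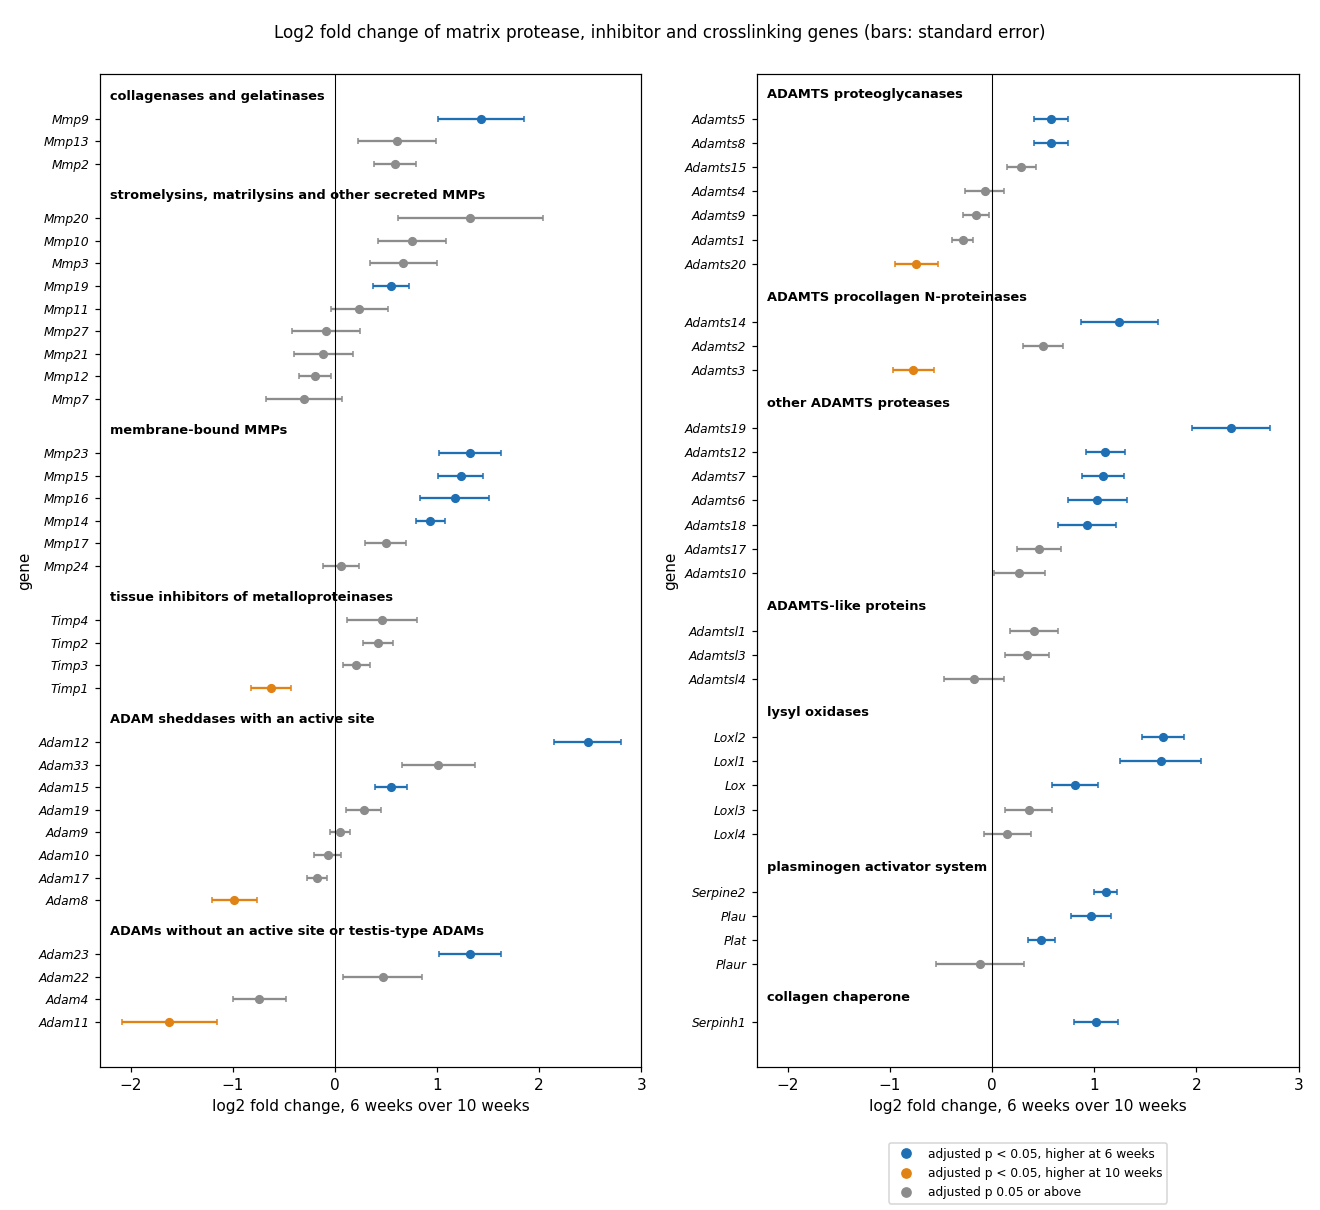
Log2 fold change of the genes, 1 of the 65 not shown (x axis, 6 weeks over 10 weeks, bars show the standard error), grouped by role. Blue points mark the 24 genes higher at 6 weeks and orange points the 5 higher at 10 weeks at an adjusted p under 0.05, and the blue points reach from 0.48 (Plat) to 2.47 (Adam12).

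Leaving out 1 rat moved these counts. Without rat 74, at 10 weeks, 14 genes were DE and higher at 6 weeks, and without rat 70, at 6 weeks, 15 were. Calls fell over the whole table too, from 2381 genes in either direction to 1594 without rat 74 and 1411 without rat 70. In place of the 5 genes higher at 10 weeks there was 1 without rat 84, 2 without rat 70 or rat 83, and 3 without rat 71, 86, 81 or 87. Calls that held in all 13 such fits numbered 14, 13 of them higher at 6 weeks (*Serpine2*, *Loxl2*, *Adam12*, *Mmp14*, *Adamts19*, *Adamts12*, *Mmp15*, *Adamts7*, *Plau*, *Serpinh1*, *Mmp23*, *Adam23* and *Loxl1*) and 1 higher at 10 weeks (*Adam8*). With the age means taken out, the rats fell into a set of 5 (rats 75 and 80 at 6 weeks, rats 78, 81 and 83 at 10 weeks) and a set of 8 (the others), which no label names and which was found without the 65 genes. All 24 and all 5 kept their sign within both sets. The sets are parts of the same 13 rats that gave the calls, so this is not an independent check. In the set of 8 alone 18 and 4 of the 65 were DE, and 19 of the 29 calls were kept. Over all genes and both directions that fit called 3469, against 2381 with all rats. In the set of 5 alone limma called 0 of the 65 and 0 of all genes. There 31 of the 65 had an unadjusted p under 0.05, as had 1976 of all genes.

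Markers of other cells moved with age too. The sum of 9 fibroblast markers was 134695 to 267409 normalized counts at 6 weeks (median 251712) and 24622 to 70955 at 10 weeks (median 61010), with no overlap. Most of this sum came from the matrix genes *Col3a1*, *Col1a1* and *Postn*, with means of 107790, 50184 and 45793 at 6 weeks. Of these markers *Col1a1*, *Col3a1*, *Postn*, *Lum* and *Thy1* were DE and higher at 6 weeks, *Pdgfra*, *Dcn*, *Dpt* and *Fbln1* were not DE, and none was at 0 in any rat. Pericyte markers summed to 5842 to 8615 at 6 weeks and 3377 to 5119 at 10 weeks (4 of 6 DE), mast cell markers to 772 to 2014 and 48 to 469 (6 of 6 DE), and genes of cycling cells to 2452 to 5226 and 326 to 1384 (8 of 8 DE), all higher at 6 weeks and without overlap. Of 6 adipocyte markers 3 were DE and higher at 6 weeks, with sums of 4748 to 7447 and 2967 to 6095, and *Adipoq* and *Plin1* were listed at 0 in at least 1 rat at 10 weeks, as were 3 of the mast cell markers. The luminal epithelial markers summed to 37611 to 54832 at 6 weeks and 51232 to 65726 at 10 weeks, with 2 of 10 (*Cdh1* and *Epcam*) DE and higher at 10 weeks, and the basal markers to 25783 to 40337 and 36077 to 46912, with 1 of 9 (*Cnn1*) DE and higher at 10 weeks. None of 9 macrophage markers and none of 7 endothelial markers was DE, with sums of 1390 to 2472 and 1188 to 2649 for macrophages and of 7418 to 13136 and 6320 to 10599 for endothelial cells. Of the neutrophil and lymphocyte lists only 1 and 3 genes were in the table, with sums of 0 to 28 and 0 to 101, and of these *Cd79b*, a B cell gene, was DE and higher at 6 weeks (log2 fold change 1.79, adjusted p = 0.0352). The part of these cells in the differences described here was not tested, and in bulk RNA fewer cells of a type and less RNA per cell cannot be told apart.

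**Figure D2:**
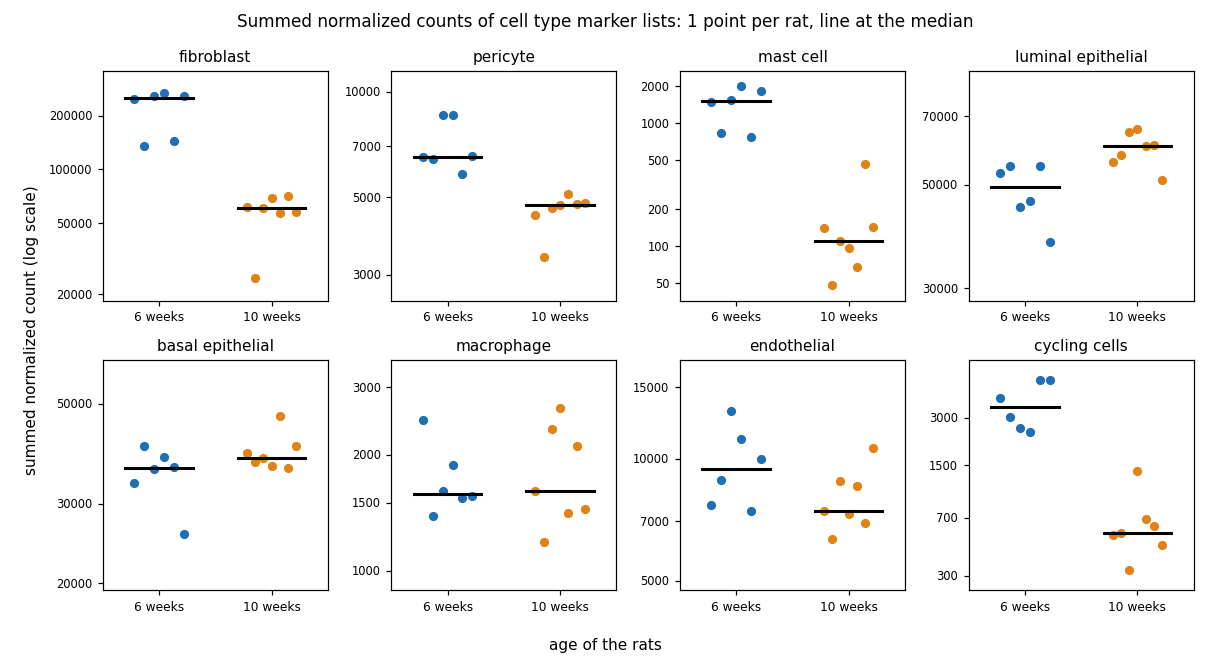
Summed normalized counts of 8 marker lists (y axis, log scale), 1 point per rat at 6 weeks (blue, 6 rats) and 10 weeks (orange, 7 rats), lines at the medians. The fibroblast, pericyte, mast cell and cycling sums do not overlap between the ages, and rat 74 lies lowest at 10 weeks for the fibroblast (24622) and pericyte (3377) lists.

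Rat 74 also stood out among the proteases. At 10 weeks it had the lowest value of its age in 17 of the 24 genes that were higher at 6 weeks, while rat 81 had the highest in 9. At 6 weeks rat 86 had the highest value in 8 of the 24 and rat 75 in 7, and rat 71 the lowest in 9.

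Of 6 membrane-bound Mmps in the table, 4 were DE and higher at 6 weeks, and none was higher at 10 weeks. *Mmp14*, which cuts fibrillar collagen at the cell surface and activates the precursor of *Mmp2*, had 3647 to 5570 normalized counts at 6 weeks (median 4948) and 1737 to 2881 at 10 weeks (median 2559). The ages were apart, with 6 weeks higher by 1.91-fold (log2 fold change 0.93 ± 0.14 SE, adjusted p = 0.00118). *Mmp15*, a relative that also spans the membrane, had 70 to 159 (median 112) at 6 weeks and 25 to 67 (median 45) at 10 weeks, again without overlap (2.35-fold, 1.23 ± 0.22, adjusted p = 0.00324). For *Mmp16*, the third of these relatives, 71 to 105 (median 88.5) at 6 weeks compared with 10 to 64 (median 46) at 10 weeks, also apart, where rat 78 alone was at 10. Its log2 fold change was 1.17 ± 0.34 (adjusted p = 0.0342), split into 0.71 for the set of 8 rats and 1.80 for the set of 5. *Mmp23*, which is freed from the membrane by cleavage, had 37 to 90 (median 58) and 11 to 37 (median 25), with the ages meeting at 37 and the other 5 rats at 6 weeks above all at 10 weeks (2.50-fold, 1.32 ± 0.30, adjusted p = 0.0128). *Mmp17* and *Mmp24* were not DE, at log2 fold changes of 0.50 and 0.06.

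**Figure D3:**
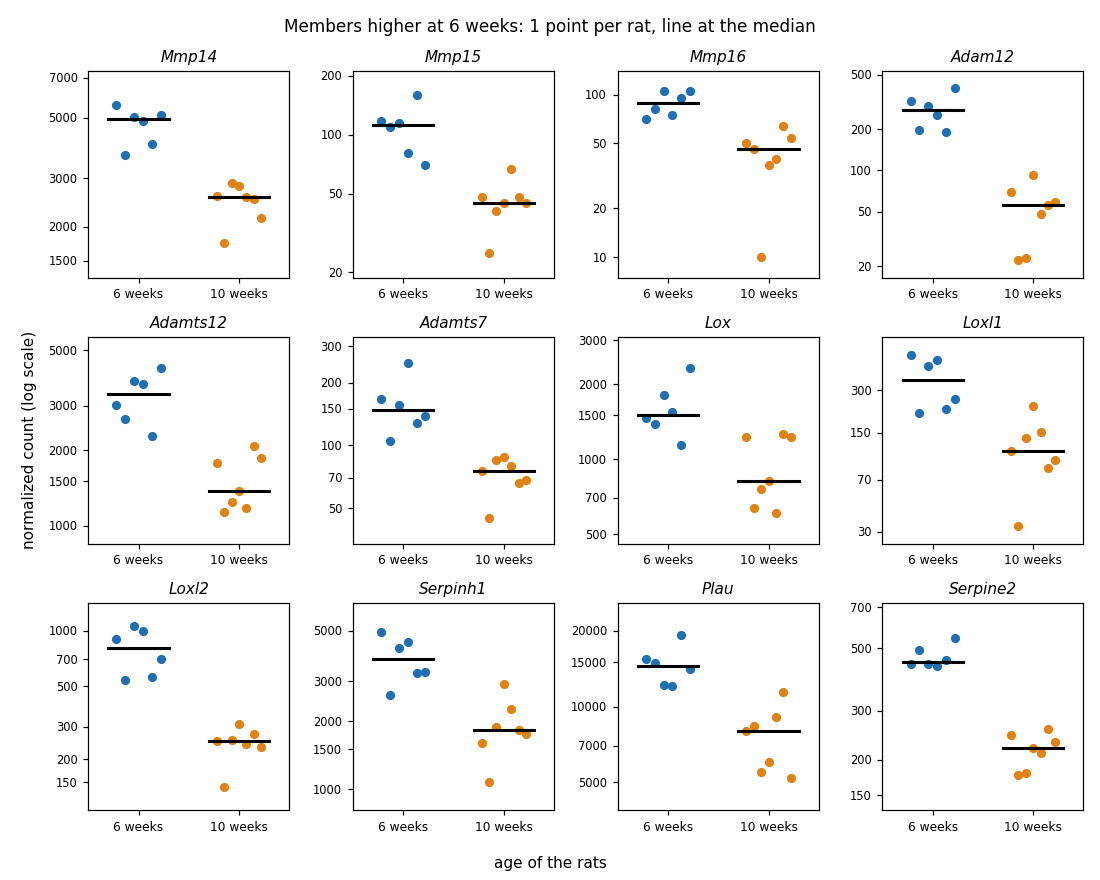
Normalized counts (y axis, log scale) of 12 genes that were higher at 6 weeks, 1 point per rat at 6 weeks (blue, 6 rats) and 10 weeks (orange, 7 rats), lines at the medians. The ages do not overlap for Mmp14, Mmp15, Mmp16, Adam12, Adamts12, Adamts7, Loxl2, Plau and Serpine2, and they overlap for Lox, Loxl1 and Serpinh1.

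Of 12 secreted Mmps 2 were DE, both higher at 6 weeks. Of the collagenases and gelatinases, *Mmp9*, a gelatinase that myeloid cells also make, was DE: 19 to 75 (median 61.5) at 6 weeks and 9 to 49 (median 15) at 10 weeks, with 4 of 6 rats at 6 weeks above all at 10 weeks (2.69-fold, 1.43 ± 0.42, adjusted p = 0.0363). *Mmp2*, the gelatinase that *Mmp14* activates, had 3312 to 5158 (median 4238) and 1401 to 3664 (median 3035). It lay at 1.50-fold and was not DE (0.59 ± 0.21, adjusted p = 0.0676), although 4 of 6 rats at 6 weeks were above all at 10 weeks, and limma-trend, which lets the variance follow the mean, gave 0.0408. Sample quality weights gave *Mmp2* 0.36 (adjusted p = 0.154), and the set of 8 rats an adjusted p of 0.243. Among 9 stromelysins, matrilysins and other secreted Mmps 1 was DE, *Mmp19*, at 461 to 771 (median 618) and 266 to 509 (median 465), close to the threshold (1.46-fold, 0.55 ± 0.17, adjusted p = 0.0494). The other 8 ranged in log2 fold change from -0.30 (*Mmp7*) to 1.32 (*Mmp20*, which had at most 23 counts in any rat and is known for its part in tooth enamel).

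None of the 7 cluster genes with a printed promoter was DE, and their ages overlapped in every case. They were singled out for their shared locus and promoter after their values were seen. *Mmp3*, stromelysin 1, had 1162 to 2567 normalized counts at 6 weeks (median 1704) and 531 to 2152 at 10 weeks (median 1143, log2 fold change 0.67 ± 0.33, adjusted p = 0.18), and it passed the threshold with sample quality weights (0.88, adjusted p = 0.0361). *Mmp10*, stromelysin 2, had 182 to 445 (median 293) and 76 to 322 (median 221), and *Mmp13*, a collagenase, had 411 to 1015 (median 600) and 178 to 876 (median 371). In these 3 genes of the cluster the same rats were high and low. Rats 70 and 84 were the highest at 6 weeks. At 10 weeks rat 85 was the highest, and rats 78 and 87 were the lowest. *Plau*, which is not in the cluster, shared these extremes, with rats 84 (19276) and 70 (15425) highest at 6 weeks. At 10 weeks its highest rat was 85 (11466), and its lowest were rats 87 (5186) and 78 (5499). *Mmp12*, the macrophage elastase, did not share this pattern at 6 weeks, where rat 86 was highest, but rat 85 was again highest at 10 weeks (496 to 689 at 6 weeks, 491 to 1020 at 10 weeks). *Mmp27*, the gene without either motif, had 30 to 83 and 23 to 84, and *Mmp7*, a matrilysin of glandular epithelia, 16 to 63 and 18 to 74. Rat 85 was the highest at 10 weeks in 6 of the 7, all but *Mmp20*, and in 18 of all 65 genes. These genes are paralogs, and how RSEM split reads shared between them could not be checked here.

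**Figure D4:**
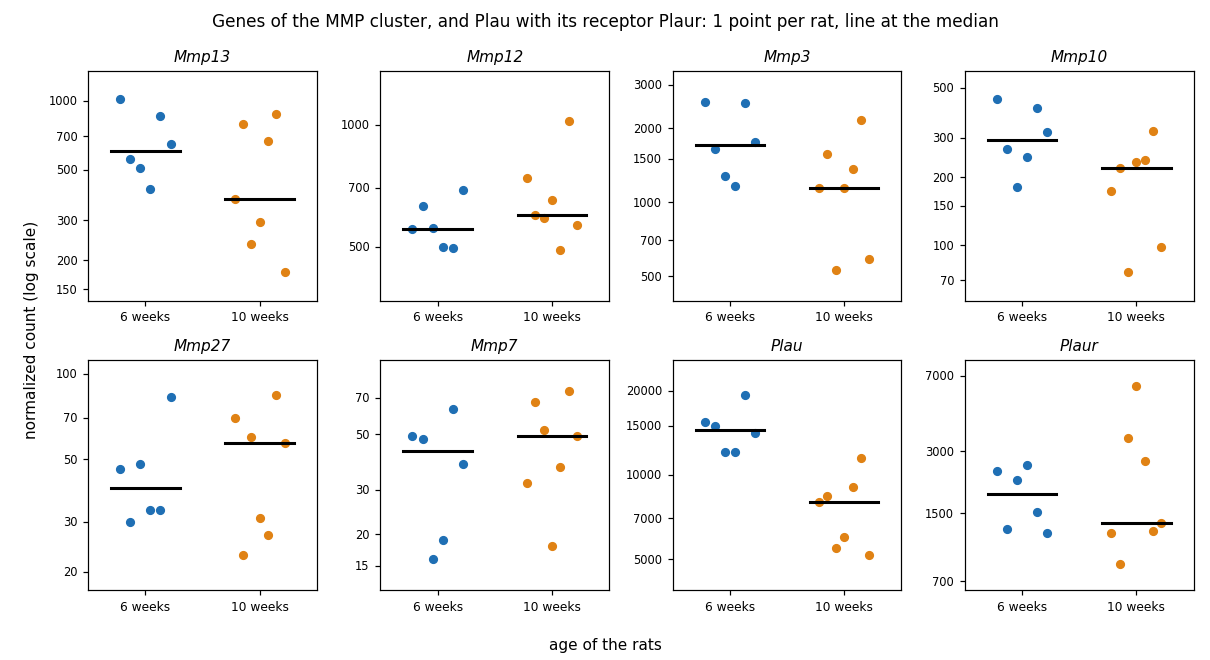
Normalized counts (y axis, log scale) of 6 genes of the Mmp cluster and of Plau and Plaur, 1 point per rat at 6 weeks (blue, 6 rats) and 10 weeks (orange, 7 rats), lines at the medians. The ages overlap for the 6 cluster genes and for Plaur and are apart for Plau.

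The inhibitors of these enzymes did not move as one group, with 1 of 4 Timp genes DE. *Timp1*, a secreted inhibitor of most Mmps, was higher at 10 weeks, with 5588 to 7866 normalized counts at 6 weeks (median 6785) and 7143 to 17320 at 10 weeks (median 9499, 1.54-fold). Rats 81 and 85 were the highest at 17320 and 14566, the ages overlapped, and 4 of 6 rats at 6 weeks lay below all at 10 weeks. Its log2 fold change stood at -0.63 ± 0.20 (adjusted p = 0.0467), and the call was lost in 12 of 13 fits without 1 rat and under library size or upper quartile scaling (adjusted p = 0.0597 and 0.0512). *Timp2*, which also takes part in the activation of *Mmp2* by *Mmp14*, leaned the other way with 1239 to 1770 (median 1567) and 768 to 1422 (median 1184) and was not DE (0.42 ± 0.14, adjusted p = 0.0624). Rat 74 was the lowest at 768, with the other rats at 10 weeks at 1066 or more, and limma-trend gave an adjusted p of 0.0378. *Timp3*, which is bound to matrix and also holds back Adam and Adamts proteases, had 2072 to 3399 (median 2645) and 1837 to 2732 (median 2367), and *Timp4* 37 to 107 and 21 to 84. Neither was DE, at 0.21 ± 0.13 and 0.46 ± 0.34. The genes *Timp1* to *Timp4* each overlap another protein-coding gene, in order *Syn1*, *Cep295nl*, *Syn3* and *Syn2*, each of which had a mean of 14.7 to 80.1 normalized counts per age, and whether counting used strand is not stated in the sources used here.

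Quotients within a rat, chosen after the values were seen and given without a test, put *Mmp14* beside *Timp2* and *Timp1*. The count of *Mmp14* over that of *Timp2* was 2.66 to 3.32 at 6 weeks and 1.67 to 2.44 at 10 weeks. For *Mmp14* over *Timp1* the range was 0.528 to 0.868 at 6 weeks and 0.163 to 0.403 at 10 weeks. Both are apart between the ages, and a change between the ages can be read from them but not a stoichiometry, since neither transcript length nor protein was measured.

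**Figure D5:**
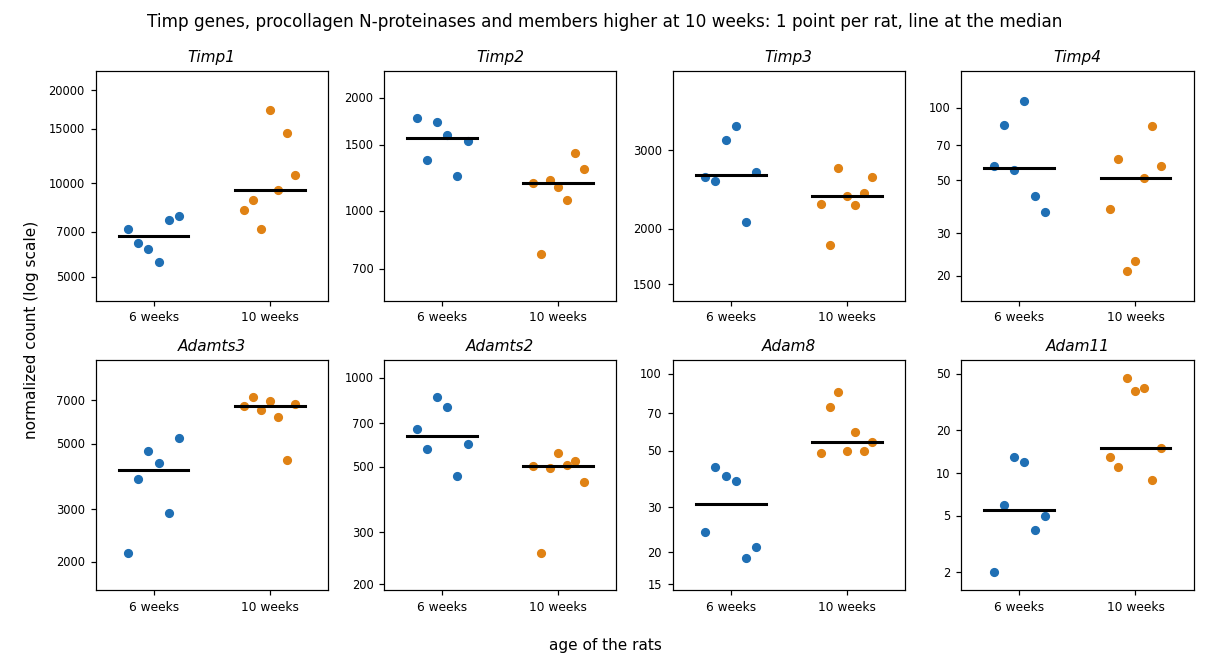
Normalized counts (y axis, log scale) of the 4 Timp genes and of Adamts3, Adamts2, Adam8 and Adam11, 1 point per rat at 6 weeks (blue, 6 rats) and 10 weeks (orange, 7 rats), lines at the medians. Only Adam8 has no overlap between the ages, with at most 43 at 6 weeks and at least 49 at 10 weeks, and rat 85 lies below the other rats at 10 weeks for Adamts3 (4387).

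In the plasminogen system both activators and 1 inhibitor were DE and higher at 6 weeks, and the receptor was not. *Plau*, the urokinase-type activator that works at the cell surface, had 12072 to 19276 normalized counts at 6 weeks (median 14482) and 5186 to 11466 at 10 weeks (median 8032), apart and 1.96-fold (0.97 ± 0.19, adjusted p = 0.00585). *Plat*, the tissue-type activator, had 4479 to 6444 (median 5526) and 2923 to 4478 (median 4087). Its ages were 1 count apart, at 1.40-fold (0.48 ± 0.13, adjusted p = 0.0296). *Serpine2*, which inhibits thrombin and plasminogen activators, had 434 to 543 (median 448.5) and 177 to 257 (median 220), again apart (2.16-fold, 1.11 ± 0.11). Its adjusted p of 0.000121 was the lowest of the 65 genes. *Plaur*, the urokinase receptor, had 1201 to 2565 (median 1853) and 846 to 6267 (median 1339) and was not DE (-0.12 ± 0.43, adjusted p = 0.874). At 10 weeks its 3 highest rats were 81, 78 and 83, at 6267, 3505 and 2683, and these are the rats of that age in the set of 5, while the set of 8 alone gave 0.43 and the set of 5 gave -0.72. Rats 75 and 80, the others in the set of 5, were at 2185 and 2565.

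Among 8 Adam proteases with an active site, 2 were DE and higher at 6 weeks and 1 was higher at 10 weeks. *Adam12*, a membrane protease known from mesenchymal cells that sheds growth factor precursors, had 190 to 401 normalized counts at 6 weeks (median 276) and 22 to 92 at 10 weeks (median 56). The ages were apart, and its 5.56-fold difference (2.47 ± 0.33, adjusted p = 0.000468) was the largest of the 65 genes, and stood at 2.44 for the set of 8 rats and 2.53 for the set of 5. *Adam15*, a protease that also binds integrins, differed less, at 234 to 411 (median 299) and 146 to 256 (median 223), with 5 of 6 rats at 6 weeks above all at 10 weeks (1.46-fold, 0.55 ± 0.16, adjusted p = 0.0343). *Adam8*, which leukocytes carry, had 19 to 43 (median 31) at 6 weeks and 49 to 85 (median 54) at 10 weeks, apart in the opposite direction (1.98-fold higher at 10 weeks, -0.98 ± 0.22, adjusted p = 0.0106). The macrophage markers were not DE, with a median log2 fold change of -0.018, and *Adgre1* leaned most towards 10 weeks (-0.72, adjusted p = 0.0709). The single neutrophil marker in the table, *S100a8*, had 0 to 19 and 6 to 28 (-0.94, adjusted p = 0.326). Which cells carried the *Adam8* difference was not tested.

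The general sheddases lay close between the ages. *Adam10*, which cuts Notch and cadherins, had 1659 to 2236 (median 1971) at 6 weeks and 1570 to 2512 (median 2140) at 10 weeks (-0.07 ± 0.13). *Adam17*, which frees tumour necrosis factor and ligands of the EGF receptor, had 2945 to 3999 (median 3346.5) and 3310 to 4306 (median 3935), at -0.17 ± 0.10. *Adam9* had 1218 to 1480 and 1134 to 1460, at 0.05 ± 0.10. None of them was DE, nor were *Adam19* (0.28) and *Adam33* (1.01). Of 4 Adams without an active site or of the testis type, *Adam23*, which binds integrins, was DE and higher at 6 weeks, at 29 to 96 (median 60.5) and 10 to 32 (median 26), with a log2 fold change of 1.32 ± 0.31 (adjusted p = 0.0128), 0.66 for the set of 8 and 2.36 for the set of 5. *Adam11*, a relative without an active site, was DE and higher at 10 weeks at few counts, 2 to 13 (median 5.5) and 9 to 47 (median 15), at -1.62 ± 0.47 (adjusted p = 0.034). Its 3 highest rats, at 47, 40 and 38, were rats 78, 83 and 81, the same as for *Plaur*.

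Of 7 Adamts proteoglycanases, which cut aggrecan and versican, 2 were DE and higher at 6 weeks, 1 was higher at 10 weeks and 4 were not DE. *Adamts5* had 227 to 399 normalized counts (median 325.5) at 6 weeks and 158 to 269 (median 203) at 10 weeks (0.58 ± 0.17, adjusted p = 0.035), and *Adamts8* 75 to 130 (median 104.5) and 48 to 94 (median 70), at 0.57 ± 0.17 (adjusted p = 0.0359). In both, 4 of 6 rats at 6 weeks lay above all at 10 weeks. *Adamts20*, at 18 to 39 (median 26) and 34 to 63 (median 39), was higher at 10 weeks (-0.74 ± 0.21, adjusted p = 0.0295). The 3 proteoglycanases with the most counts were not DE. *Adamts1*, needed for normal ovary and kidney function in mice, had 7007 to 9146 (median 8209) and 8556 to 11427 (median 10259) and was not DE (-0.29 ± 0.10, adjusted p = 0.0749), but passed the threshold with sample quality weights (adjusted p = 0.0122) and in the set of 8 alone (adjusted p = 0.0489). *Adamts9* had 7495 to 10990 and 9169 to 12651 (-0.15 ± 0.13), and *Adamts4* 3983 to 8335 and 4489 to 7881 (-0.07 ± 0.19).

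The 3 procollagen N-proteinases, which trim the amino end of fibrillar procollagens, went in different directions. *Adamts3*, also known for activating the lymphatic growth factor Vegfc, was higher at 10 weeks, with 2143 to 5214 normalized counts at 6 weeks (median 4058.5) and 4387 to 7165 at 10 weeks (median 6677, 1.71-fold, -0.77 ± 0.20, adjusted p = 0.0222). Rat 85 was the lowest at 10 weeks at 4387, and the other 6 had 6129 or more, above every rat at 6 weeks. *Adamts14* was higher at 6 weeks, at 18 to 56 (median 26) and 5 to 35 (median 10), where rat 78 held the 35 and the others of its age 15 or less (2.37-fold, 1.25 ± 0.37, adjusted p = 0.0397). *Adamts2* had 464 to 860 (median 633) and 255 to 555 (median 501) and was not DE (0.50 ± 0.20, adjusted p = 0.0992). The quotient of *Adamts3* over *Adamts2*, again chosen after the values were seen, was 3.19 to 8.78 at 6 weeks and 8.39 to 28.1 at 10 weeks.

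Among the other 7 Adamts proteases 5 were DE, all higher at 6 weeks. *Adamts12* and *Adamts7*, related enzymes that cut cartilage oligomeric matrix protein, were both apart between the ages. *Adamts12* had 2277 to 4231 normalized counts (median 3343) at 6 weeks and 1130 to 2082 (median 1374) at 10 weeks (2.16-fold, 1.11 ± 0.19, adjusted p = 0.00242). *Adamts7* had 105 to 249 (median 147.5) and 45 to 88 (median 75), at 2.12-fold (1.09 ± 0.20, adjusted p = 0.0038). *Adamts19* was low but differed most of the Adamts genes, at 23 to 81 (median 51) and 4 to 24 (median 8), 5.06-fold (2.34 ± 0.38, adjusted p = 0.00179). Only rat 81, at 24, reached the range of the 6-week rats, and the difference was 2.92 for the set of 8 and 1.46 for the set of 5. *Adamts6*, a regulator of fibrillin microfibrils, had 19 to 61 (median 34.5) and 12 to 23 (median 14), at 1.03 ± 0.29 (adjusted p = 0.0314), with 0.51 for the set of 8 and 1.92 for the set of 5. *Adamts18* had 153 to 275 (median 162) and 50 to 208 (median 97), at 0.93 ± 0.28 (adjusted p = 0.0425), with 1.27 and 0.52 for those sets. *Adamts10* and *Adamts17* were not DE, and neither were the 3 Adamts-like genes, which have no protease domain and ran from -0.18 to 0.41.

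Of 5 lysyl oxidases, 3 were DE and higher at 6 weeks. *Loxl2*, which crosslinks fibrillar and basement membrane collagens, had 536 to 1055 normalized counts (median 800) at 6 weeks and 142 to 311 (median 252) at 10 weeks, apart and 3.19-fold (1.67 ± 0.21, adjusted p = 0.000328). The set of 8 rats gave 1.58 and the set of 5 gave 1.93. *Loxl1*, known for its part in elastic fibres, had 208 to 533 (median 354) and 33 to 231 (median 111), at 3.14-fold (1.65 ± 0.39, adjusted p = 0.0148), with 4 of 6 rats at 6 weeks above all at 10 weeks and rat 74 at 33. *Lox* itself had 1136 to 2318 (median 1507) and 611 to 1256 (median 818), at 1.75-fold (0.81 ± 0.22, adjusted p = 0.0273), with 0.54 for the set of 8 and 1.21 for the set of 5, and was not DE with sample quality weights (adjusted p = 0.0969). *Loxl4* had 476 to 961 (median 721.5) and 445 to 1001 (median 651), and *Loxl3*, which overlaps *Htra2*, 45 to 73 and 25 to 83. Neither was DE, at 0.15 ± 0.23 and 0.36 ± 0.23. *Serpinh1*, a chaperone of the endoplasmic reticulum that binds procollagen and does not inhibit proteases, was higher at 6 weeks, at 2608 to 4960 (median 3737.5) and 1084 to 2923 (median 1826), 2.02-fold (1.01 ± 0.22, adjusted p = 0.00812). Rat 74 was the lowest at 10 weeks for *Loxl1*, *Loxl2* and *Serpinh1*, as for the sum of fibroblast markers, and second lowest for *Lox*.

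Other genes of matrix proteolysis and collagen making, which the symbol rule does not take, were counted in the same fit. Of 55 such genes in the table, 19 were DE and higher at 6 weeks, where 8.71% of all genes were. Only 1 of the 55 was DE and higher at 10 weeks, where 7.39% of all genes were. The median log2 fold change was 0.43 over the 55 genes and 0.028 over all genes. The enzymes and chaperones that modify and fold procollagen were *Plod1* (0.93), *P4ha2* (0.49), *P3h1* (1.45), *P3h3* (1.08), *Fkbp10* (1.16), *Fkbp14* (0.72) and *Ppib* (0.66), while *P4ha1* (0.05), *P4ha3* (0.89), *P4hb* (0.13), *P3h2* (0.03), *Plod2* (0.22), *Plod3* (0.52) and *Colgalt1* (0.13) were not DE. *Pcolce* (1.67), which speeds the cutting of the carboxyl end of procollagen, was higher at 6 weeks, and *Bmp1* (0.41), the enzyme it assists, was not DE. *Pxdn* (1.35) and *Tgm2* (0.43), which crosslink collagen of basement membranes and other matrix proteins, were DE as well. *Pxdn* had 1529 to 2054 normalized counts at 6 weeks and 551 to 875 at 10 weeks.

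The proteases and uptake genes among the 19 were *Fap* (2.19), a serine protease of activated fibroblasts, *Ctsk* (1.35), a lysosomal collagenase, *Htra3* (1.07), *Hpn* (1.80), the endocytic collagen receptor *Mrc2* (1.16) and the plasminogen receptor *Plgrkt* (1.19). *Fap* had 159 to 373 at 6 weeks and 29 to 95 at 10 weeks, apart. The remaining 3 were the cathepsin inhibitor *Cst6* (1.50) and the collagen-binding *Sparc* (1.42) and *Bgn* (0.86). *Tmprss2*, a membrane serine protease of luminal epithelium, was the 1 gene higher at 10 weeks, at 209 to 288 and 322 to 478 without overlap (-0.65 ± 0.11, adjusted p = 0.00242). The lysosomal proteases *Ctsb*, *Ctsd*, *Ctsl* and *Ctss* were not DE, with log2 fold changes from -0.19 to 0.54.

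For 15 of the 29 DE genes the call did not hold in every fit without 1 rat. *Adamts3* lost its call without rat 84 alone (adjusted p = 0.0549), and *Lox* without rat 74 or rat 70 (0.055 and 0.0506). *Adam15*, *Plat*, *Mmp16* and *Adamts6* held in 7 of 13 fits each, with the highest adjusted p at 0.0796 without rat 70 for *Adam15*, 0.0684 without rat 70 for *Plat*, 0.0681 without rat 84 for *Mmp16* and 0.0577 without rat 86 for *Adamts6*. *Adamts20* held in 8 (0.0706 without rat 70), and *Adamts8* and *Adam11* in 6 (0.0845 and 0.0792 without rat 70). *Adamts5*, *Mmp9*, *Adamts14* and *Adamts18* held in 4, with 0.0683 without rat 74, 0.0836 without rat 70, 0.0728 without rat 87 and 0.0854 without rat 71. *Mmp19* held in 2 (0.0924 without rat 70) and *Timp1* in 1 (0.083 without rat 71). Of all 29 calls, 17 were left without rat 70, 18 without rat 74, 19 without rat 86, 20 without rat 83 or 84, 21 without rat 75, 80 or 87, 22 without rat 71, 72, 78 or 85 and 27 without rat 81. No DE gene changed its sign in any of these fits, which share most of their rats with the main fit.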

How the data were processed

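RNA-seq of mammary epithelial cells of 13 rats was analysed, 6 at 6 weeks and 7 at 10 weeks, grouped by the sample titles. The authors estimated counts with RSEM v1.2.22, and the deposited values per rat are whole numbers scaled per library, taken here as a score and called normalized counts. The submitters' processing notes also name edgeR, DESeq2 and the build rn5, while the annotation behind the counts is not given in the sources used here. Depth before scaling is not stated and limits the precision of low counts. Columns of the authors' deposited table with their own comparison (log2 fold change and abundance, a likelihood ratio score and p-values) and a word on nuclear or cytoplasmic location were not used.

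Genes were chosen by a rule on symbols, and the 65 genes and all lists were chosen with earlier results of these data known. All 14790 genes had a mean of at least 1, the minimum set, and were fitted with limma 3.58.1 (lmFit, eBayes) in R 4.3.3 on log2(normalized count + 1), with no covariate, two-sided, with Benjamini-Hochberg adjustment and a threshold of 0.05. Rats of one age are separate animals. The fit was tried on simulated counts of independent libraries, drawn without scaling per library and without a split of the rats. That simulation cannot show how the fit behaves on the scaled values used here. Genes named with values were all DE genes, those with a mean of at least 1000, those with the largest log2 fold change in each direction at a mean of at least 100, and the Timp, lysyl oxidase and plasminogen genes and *Serpinh1*, and of the other matrix genes those that were DE. Some items, 1 of the 65 genes among them, are counted but not reported here. Any further gene was named after its values were seen. The alternatives were other scalings (library size, median-ratio, upper quartile), a minimum of 10 or none, 0.1 as pseudocount, limma-trend, sample quality weights, each rat set alone and each rat left out. Rats were parted into a set of 5 and a set of 8 at the widest gap on the first component of the residual variation, which held 28.3% of it. Promoters (250 bases before to 50 after the start) came from RefSeq GRCr8 by symbol, which matched all 65 genes and gave 47 of them a window. Tables and plots were made in Python 3.11.15 with pandas 2.3.3, numpy 2.4.6 and matplotlib 3.10.9. The Hi-C data of the study were not analysed here.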

Additional observations from a re-analysis of the deposited data

Results flagged for a closer look

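In 10 of 112 groups of values examined, 1 rat lay farther from the rest of its age than Dixon's 95% limit allows, and chance alone gives about 1 in 20 such groups. Of the genes described, *Adamts14* stood at 35 normalized counts in rat 78 where the other rats at 10 weeks had 5 to 15. *Adamts19* stood at 24 in rat 81 against 4 to 10 in the others at 10 weeks. *Adamts3* was low in rat 85, at 4387 against 6129 to 7165 in the others at 10 weeks.

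Among the summed marker lists at 10 weeks, rat 74 had 24622 for fibroblasts (57354 to 70955 in the others) and 3377 for pericytes (4449 to 5119). Rat 83 had 46912 for basal epithelial cells (36077 to 40245), rat 85 had 469 for mast cells (48 to 144), and rat 81 had 1384 for cycling cells (326 to 685). The 3 lymphocyte markers in the table summed to 69 in rat 70 at 6 weeks (3 to 13 in the others) and to 101 in rat 78 at 10 weeks (0 to 21). The causes of these values were not tested.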

How the results depend on the processing

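No paired analysis was possible because the rats of the 2 ages carry different numbers. The 29 DE genes and 15 others were followed through 23 settings, and no DE gene changed sign in any of them. All settings use the same rats or part of them, so this is not an independent check. With no minimum count, which keeps the same genes, and with a minimum of 10, all 29 calls were kept. In the set of 5 rats alone limma called 0 genes in either direction, against 24 and 5, and 0 of all genes, with 1976 of all genes at an unadjusted p under 0.05. Without 1 rat in turn, 14 to 26 of the genes were DE and higher at 6 weeks and 1 to 5 higher at 10 weeks, and the median log2 fold change was 0.41 to 0.53. The same fits called 1411 (without rat 70) to 2680 (without rat 81) of all genes. Over all genes, sample quality weights gave 5647 DE genes, against 2381, and 25 of the 29 calls were kept. With all rats, *Mmp19*, *Timp1*, *Lox*, *Plat* and *Adamts6* each lost the call in at least 1 setting. Changes of sign touched genes that were not DE: *Adam9* (-0.031), *Timp4* (-0.13) and *Plaur* (0.43) in the set of 8 rats, *Adamts4* (0.23) and *Adamts9* (0.094) in the set of 5, and *Plaur* with sample quality weights (0.15). Without 1 rat in turn, *Adamts4* ran from -0.17 to 0.040 (above 0 without rat 84) and *Plaur* from -0.32 to 0.16 (above 0 without rat 78 or rat 81). Few counts limit the 9 DE genes with a mean under 50. The causes of these shifts were not tested.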
